A study of Mus musculus with 8 samples.

Results

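Axon guidance ligands and receptors are the secreted and membrane-bound cues that steer growing axons, together with the proteins that read them. The genes described here are all rows of the expression matrices named as a class 3 to class 7 semaphorin, a plexin, a neuropilin, an Eph receptor, an ephrin, a Robo, a Slit, an Unc5, Dcc or a netrin, with at least 20 UMIs (unique molecular identifiers, each counting 1 captured transcript) summed over all annotated cells of the 8 libraries. The name pattern matched 68 of 31053 genes, and 66 reached the minimum: 20 semaphorins, 9 plexins, 2 neuropilins, 8 ephrins, 13 Eph receptors, 3 Slits, 4 Robo receptors, 2 netrins, Dcc and 4 Unc5 receptors, that is, 33 ligands and 33 receptors. Epha1, with 2 UMIs, and Ntn5, with 4 UMIs, fell below it. The sums ran from 32 UMIs for Efna4 to 10238 UMIs for Epha4.

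Semaphorins signal through plexins, and most secreted class 3 semaphorins need a neuropilin as co-receptor. Slits bind Robo receptors, netrins bind Dcc and the Unc5 receptors, and ephrins bind Eph receptor tyrosine kinases, with signals running in both directions between touching cells. In the adult brain the same families are known for roles at synapses, in blood vessels and in the oligodendrocyte lineage.

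The study asked how loss of 1 copy of Setd1a, a histone H3 lysine 4 methyltransferase gene linked to schizophrenia, alters gene expression in single cells from the prefrontal cortex (PFC) and from the striatum. There were 4 groups of 2 libraries each: PFC of wild-type (WT) mice, PFC of Setd1a+/- mice, and the striatum of both genotypes, named NAc (nucleus accumbens) in the sample labels and striatum in the study. All mice were C57BL/6N males without treatment, 8 to 10 weeks old by the labels and older by the study's methods, and each library pooled the tissue of 2 animals. The Setd1a+/- allele is a CRISPR-Cas9 frameshift deletion that every cell of the animal carries on 1 chromosome, so no result is tied to a cell type by the genetics. In the labels the titles write this genotype as Setd1+/-. Values are given for WT libraries 1 and 2 and then Setd1a+/- libraries 1 and 2, in this order, wherever 4 values of a tissue stand together.

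Annotated cells numbered 1508 to 4361 per library, with 5999666 to 13521114 UMIs in them and medians of 2302.5 to 3042 UMIs per cell. Any pair of libraries shared 1 to 24 cell barcodes. Setd1a itself was 8.45, 11.2, 5.59 and 9.33 UMIs per 1000000 (CPM) in the PFC and 13.4, 15.2, 9.16 and 12.5 CPM in the striatum, from 46 to 206 UMIs a library. The Setd1a+/- library was below the WT library of the same number in each of these pairs, and the groups overlapped in the PFC. The defining markers peaked in the annotated class of their name, with a few exceptions that touch the results: the striatal interneuron class held excitatory neuron markers, summing over Slc17a7 and Neurod6 to 229 to 352 CPM per library, against 0 to 23.9 CPM in the PFC class, and its Gad1 was 588 CPM against 1593 CPM. The class annotated as endothelial also held the mural cell markers Rgs5, Vtn and Pdgfrb, which summed to 4380 to 4952 CPM in the PFC and 3906 to 4466 CPM in the striatum, and red blood cell transcripts. The striatal glial, endothelial and neuroblast classes all carried transcripts of medium spiny neurons (MSNs). For example, Tac1 was 196 CPM in striatal and 0 in PFC endothelial cells. The D1 MSN markers Drd1, Tac1 and Pdyn summed to 65.9 to 283 CPM in striatal and 2.86 to 25.5 CPM in PFC oligodendrocytes. In newly formed oligodendrocytes the sums were 32.8 to 540 and 2.98 to 44.8 CPM. In oligodendrocyte progenitor cells they were 190 to 240 and 61.3 to 79.0 CPM.

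Together the 66 genes took 1534, 1578, 1516 and 1509 CPM of all annotated UMIs in the PFC and 1122, 1104, 1152 and 1099 CPM in the striatum. Levels are CPM of UMIs summed per library and annotated cell type, and means over the 4 libraries of a tissue are given ± SD. The protocol tags 1 end of each transcript, so that values are not per transcript length, and levels are compared between cell types for 1 gene, not between genes. A gene is called leading in a cell type below when its CPM there was at least 2-fold that in every other type in every library of the tissue. The types were themselves clustered on expression, so that these levels describe the cells and carry no test.

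In the PFC, 14 of the 63 genes with at least 20 UMIs led in a type, which is 22.2% beside 13.3% of all genes with that many UMIs. In the striatum 10 of 66 led, 15.2% beside 12.0% of all genes. Of the 14 PFC leaders 7 belonged to endothelial cells (Sema3c, Sema3g, Sema7a, Robo4, Ephb4, Epha2 and Plxnd1) and 4 to excitatory neurons (Unc5a, Epha7, Ephb6 and Epha4). That is 50% and 28.6% of the leaders, beside 33.3% and 16.5% of the 2010 leading genes of all kinds. The microglial leader was Plxnb2, that of newly formed oligodendrocytes was Plxnb3, and that of oligodendrocytes was Efnb3. Astrocytes, interneurons and oligodendrocyte progenitor cells (OPCs) held none. Without asking for any margin, excitatory neurons had the highest mean of 16 of the 63 genes (25.4%, beside 20.1% of all genes), endothelial cells of 13 (20.6%, beside 17.8%), interneurons of 12 (19.0%, beside 13.7%) and microglia of 1 (1.59%, beside 8.15%). The map of mean levels shows each gene over all types of both tissues.

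**Figure D1:**
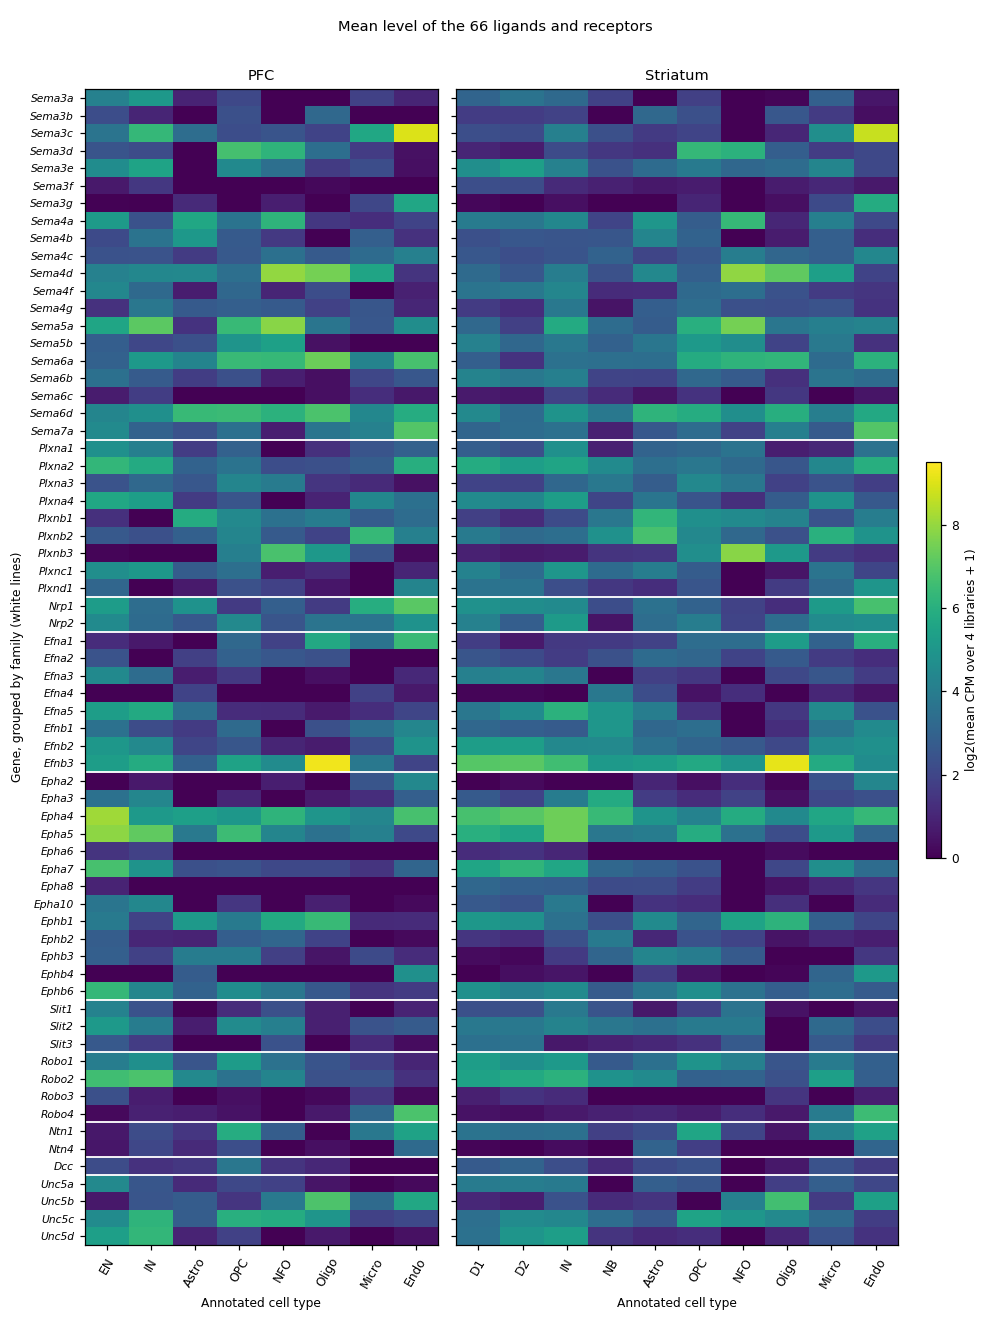
Mean CPM over the 4 libraries of a tissue, as log2(CPM + 1) in colour, for each of the 66 genes (rows, grouped by family between white lines) in each annotated type (columns) of the PFC and the striatum. EN, excitatory neurons; IN, interneurons; D1 and D2, medium spiny neurons; NB, neural stem cells and neuroblasts; OPC, oligodendrocyte progenitors; NFO, newly formed oligodendrocytes. The brightest cells are Efnb3 in oligodendrocytes and Sema3c in endothelial cells, and Robo3 and Epha6 stay dark in every type.

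The secreted ligands Sema3c and Sema3g and the receptors Robo4 and Ephb4 led in the endothelial class of both tissues, as did Sema7a, a lipid-anchored semaphorin. Because these 5 genes led in 1 cell class in both tissues, 3 of their promoters are printed, each spanning 250 bases before to 50 bases after the transcript start in RefSeq on GRCm38.p6. Of the 66 genes 56 had a promoter entry there. Sema3c (ENSMUSG00000028780, chr5:17574281-17730268, plus strand), Sema3g (ENSMUSG00000021904, chr14:31217860-31230352, plus strand) and Robo4 (ENSMUSG00000032125, chr9:37401897-37415115, plus strand) have these windows at chr5:17574566-17574865, plus strand, at chr14:31217623-31217922, plus strand, and at chr9:37401722-37402021, plus strand. Capitals mark the letters AGGAAG on either strand (CTTCCT on the printed strand where it lies on the other), 1 of 2 forms searched that hold GGAA, the core bound by ETS transcription factors, a family known for its role in endothelial cells.
Sema3c promoter: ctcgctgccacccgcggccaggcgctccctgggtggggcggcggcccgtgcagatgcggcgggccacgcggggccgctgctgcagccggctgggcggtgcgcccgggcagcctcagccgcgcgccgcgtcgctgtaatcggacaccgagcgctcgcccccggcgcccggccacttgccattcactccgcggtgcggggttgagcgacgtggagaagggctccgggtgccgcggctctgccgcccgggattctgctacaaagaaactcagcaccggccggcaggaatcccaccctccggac
Sema3g promoter: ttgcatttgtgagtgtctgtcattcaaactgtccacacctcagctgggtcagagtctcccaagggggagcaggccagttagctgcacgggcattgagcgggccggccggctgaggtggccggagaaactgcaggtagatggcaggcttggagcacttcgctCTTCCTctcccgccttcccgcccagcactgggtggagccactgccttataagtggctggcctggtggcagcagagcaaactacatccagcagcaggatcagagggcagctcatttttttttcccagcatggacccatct
Robo4 promoter: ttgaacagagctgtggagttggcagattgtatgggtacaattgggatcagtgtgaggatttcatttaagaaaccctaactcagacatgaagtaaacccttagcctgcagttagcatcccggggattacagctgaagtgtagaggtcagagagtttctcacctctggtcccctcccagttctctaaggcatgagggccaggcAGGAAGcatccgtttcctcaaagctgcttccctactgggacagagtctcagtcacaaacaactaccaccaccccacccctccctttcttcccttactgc
AGGAAG was found 1 time each in the Sema3g and Robo4 windows and not in those of Sema3c, Sema7a and Ephb4. It lies in 35.4% of all 32851 promoters of the same length and in 36.1% of the 72 promoter entries of the genes described here. The other form, CCGGAA, was searched on both strands and was in none of the 5 windows, in 14.9% of all promoters and in 9.72% of the 72. The forms differ in the base before GGAA, so that 1 core counts for at most 1 of them. These matches describe the letters in the windows and say nothing on which factor binds there.

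Sema3c, a secreted semaphorin known for its part in vascular and neural crest development, was 590.1, 396, 533 and 543 CPM in PFC endothelial cells. The next type, interneurons, had 94.3, 59.8, 71.0 and 89.4 CPM, which is 6.56-fold lower in the means. In striatal endothelial cells Sema3c was 347, 389, 439.7 and 508 CPM, 17.1-fold above microglia, the next type. The genotypes overlapped in the PFC, whereas in the striatum both Setd1a+/- libraries were above both WT libraries (log2 fold change 0.39 ± 0.19 SE, edgeR adjusted p = 1.0). Empty droplets, which hold free RNA, had Sema3c at 26.0 to 59.4 CPM in the PFC and 16.1 to 36.8 CPM in the striatum, and every striatal type other than endothelial cells had a mean within or below that range.

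Robo4, the Robo receptor that keeps vessels stable and binds little or no Slit, was 129, 99.4, 129 and 89.2 CPM in PFC and 96.6, 104, 105 and 56.5 CPM in striatal endothelial cells. Striatal Setd1a+/- library 2 was the lowest of its group. The next type, microglia, was 13.4-fold lower in the PFC and 6.16-fold lower in the striatum, and the microglial class also held the endothelial marker Cldn5 at 195 CPM in the PFC and 218 CPM in the striatum. Robo3, which lies tail to tail with Robo4 at chr9:37415669-37433246, minus strand, without overlap, was at most 4.02 CPM on average in any type. In PFC endothelial cells, where Robo4 peaked, Robo3 was 0.188 CPM.

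The other endothelial leaders were 2 more semaphorins, 2 Eph receptors, a plexin and, in the striatum, a neuropilin. Sema3g was 46.1, 68.9, 38.3 and 38.6 CPM in the PFC and 68.3, 40.8, 61.2 and 58.3 CPM in the striatum. Sema7a was 142, 111, 93.9 and 147 and 143, 132, 123 and 92.9 CPM, and its known receptor Plxnc1 peaked in another class, interneurons, at 32.7 ± 14.2 (SD, n = 4) CPM in the PFC. Ephb4, the venous Eph receptor, was 19.0, 43.7, 19.5 and 24.1 CPM in the PFC, where Efnb2, its arterial ligand, was 28.2 ± 6.64 CPM in the same class and 31.7 ± 0.757 CPM in excitatory neurons. In the PFC Epha2 (21.0, 21.2, 21.8 and 19.3 CPM) and Plxnd1, the plexin that reads Sema3e in vessels (mean 18.6 CPM), also led there. In the striatum Nrp1, the neuropilin that binds both Sema3a and the growth factor VEGF, led at 132, 107, 104 and 81.9 CPM. In the PFC Nrp1 was 170.3, 131, 135 and 98.9 CPM, the highest of the types in every library, with microglia next at 60.1 CPM. Endothelial cells held no Sema3a to speak of, with a mean of 0.976 CPM in the PFC.

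In the oligodendrocyte lineage the genes divided by stage. Efnb3, a transmembrane ephrin made by myelinating cells that repels axons, was 649.8, 595, 617 and 654 CPM in PFC oligodendrocytes and 516, 674, 487 and 592 CPM in striatal ones. OPCs had 43.5 CPM and newly formed oligodendrocytes 22.8 CPM in the PFC, so that Efnb3 stood more than 10-fold higher in mature oligodendrocytes than in either earlier stage. Plxnb3 marked the stage between: it was 68.4, 143, 50.7 and 170.3 CPM in PFC newly formed oligodendrocytes, against means of 16.0 CPM in OPCs and 32.9 CPM in oligodendrocytes. In the striatum Plxnb3 was 153, 307, 148 and 275 CPM in that class. In both tissues Plxnb3 was higher in the libraries numbered 2 than in those numbered 1, whichever the genotype.

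Sema4d, a membrane semaphorin of myelinating cells, was 327, 199, 249.6 and 224 CPM in PFC newly formed oligodendrocytes and 178, 134, 292 and 124 CPM in oligodendrocytes. The libraries of the 2 stages overlapped for Sema4d, whereas OPCs held 9.94 CPM. Sema3d was highest at the first stage, with 132, 86.0, 88.8 and 109.8 CPM in PFC OPCs, 72.1 CPM in newly formed oligodendrocytes and 9.89 CPM in oligodendrocytes. Sema5a peaked in newly formed oligodendrocytes at 223, 281, 137 and 251 CPM. Sema4a led in that class in the striatum at 81.0 ± 28.8 CPM, from 42 UMIs.

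Among the netrin and Unc5 genes, Ntn1, the founding secreted netrin, was 52.5, 53.5, 67.1 and 56.2 CPM in PFC OPCs, and its attractive receptor Dcc peaked there too at 28.5, 9.13, 7.90 and 5.36 CPM. The Dcc values spread over 5-fold between libraries of 1 type and rest on 32 UMIs. Unc5b, a repulsive netrin receptor also known in vessels, was 99.4 to 133 CPM in PFC oligodendrocytes, higher in both WT libraries, and 104, 80.4, 108 and 94.4 CPM in striatal ones, with 50.7 CPM in PFC endothelial cells. Unc5a led in PFC excitatory neurons at 19.6, 20.6, 21.2 and 23.8 CPM, 4.44-fold above interneurons. Unc5c and Unc5d were highest in PFC interneurons, at 71.9 and 76.7 CPM, with Unc5c at 62.1 CPM in OPCs, where Unc5d was 2.58 CPM. The 4 Unc5 genes thus peaked in 3 different classes of the PFC.

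In glia outside the lineage, Plxnb2, a receptor for class 4 semaphorins, led in PFC microglia at 79.8, 86.5, 50.6 and 112 CPM, 4.34-fold above OPCs. Its relative Plxnb1, the Sema4d receptor, was highest in astrocytes, at 55.5, 29.3, 76.9 and 65.1 CPM in the PFC and 70.4, 71.3, 76.6 and 84.9 CPM in the striatum. In the striatum no gene of the 66 led in microglia or had its highest mean there, where 6.62% of all genes had theirs. The 3 B plexins thus had their highest PFC means in microglia, astrocytes and newly formed oligodendrocytes. Neural stem cells and neuroblasts, annotated only in the striatal libraries, had the highest means of 4 genes (6.06%, beside 13.3% of all genes). Among the 4 were Epha3 at 55.1 ± 22.1 CPM and Efnb1 at 30.8 ± 10.4 CPM.

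**Figure D2:**
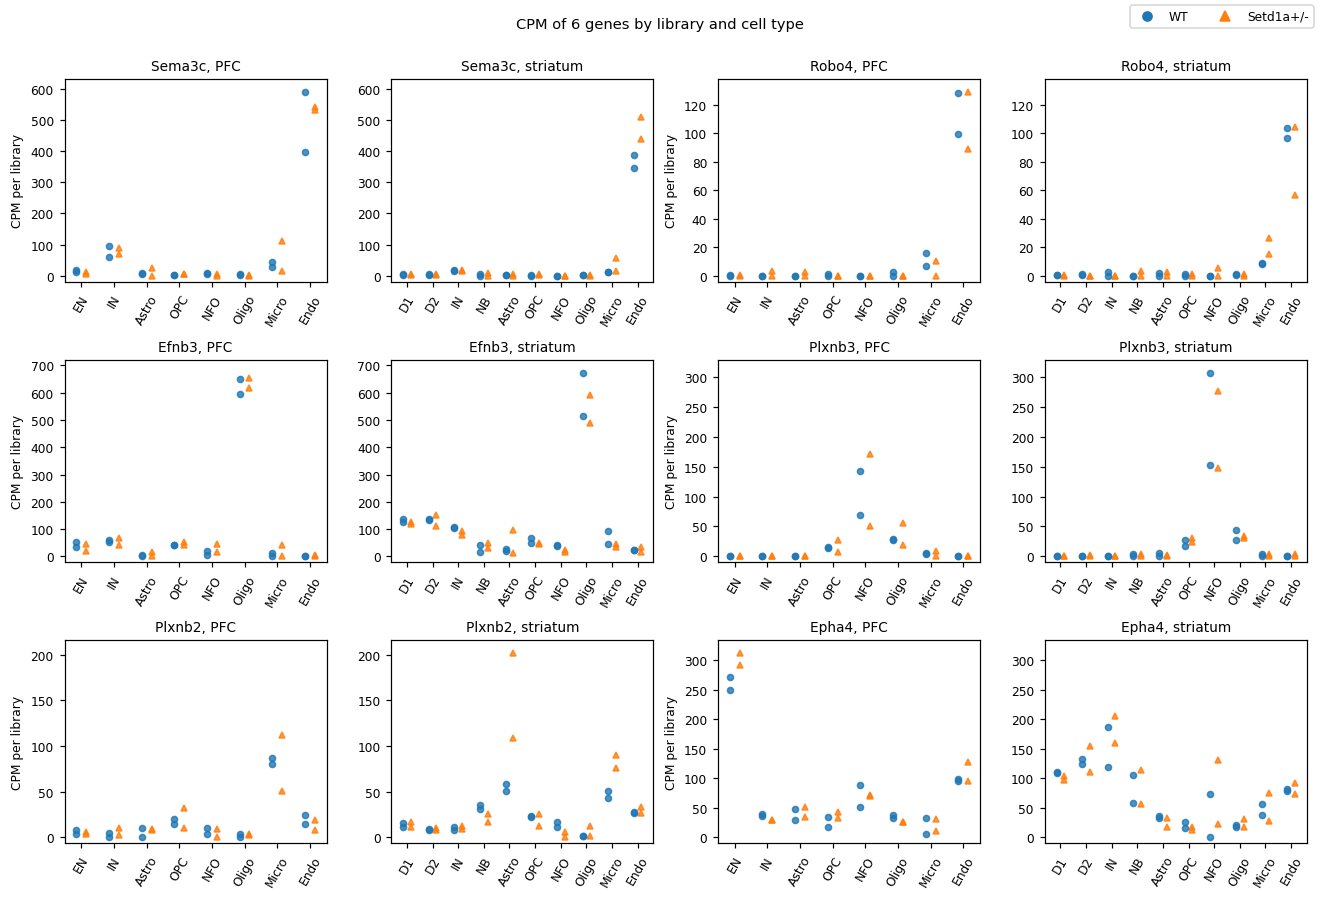
CPM in each library (1 point each; circles, WT; triangles, Setd1a+/-) for Sema3c, Robo4, Efnb3, Plxnb3, Plxnb2 and Epha4 over the annotated types of the PFC and the striatum, on linear axes that start near 0. Endothelial Sema3c lies between 347 and 590.1 CPM in all 8 libraries and oligodendrocyte Efnb3 between 487 and 674 CPM. Plxnb2 has its highest mean in microglia in the PFC but in astrocytes in the striatum. There both WT astrocyte libraries lie below both Setd1a+/- ones and below the mean of striatal microglia.

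Excitatory neurons held the highest levels of several Eph receptors. Epha4, a receptor that binds ephrins of both classes, was 249, 272, 292 and 312 CPM in PFC excitatory neurons, 2.70-fold above endothelial cells and far above interneurons at 40.0, 35.9, 28.8 and 29.8 CPM. Epha5 was 225, 247, 222 and 246 CPM in excitatory neurons and 126, 185, 97.6 and 165 CPM in interneurons, so that it did not lead. Epha7 (119, 92.5, 115 and 98.2 CPM) and the kinase-dead Ephb6 (57.0, 120.5, 35.3 and 107 CPM) led in excitatory neurons, Ephb6 with a spread of more than 3-fold between libraries. In the striatum Epha5 led in interneurons at 179.5, 152, 148 and 197 CPM, 2.68-fold above D1 MSNs. Epha6 was at most 2.59 CPM and Epha8 at most 8.07 CPM on average in any type. Of the Slit receptors, Robo2 was 79.4 to 137 CPM in PFC interneurons and 76.0 to 101 CPM in excitatory neurons, which overlap, and Robo1 was highest in OPCs at 54.0, 40.4, 21.7 and 29.5 CPM. The Slits had their highest PFC means in excitatory neurons, with 17.8 CPM for Slit1, 33.9 CPM for Slit2 and 5.33 CPM for Slit3.

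Further genes peaked across neurons, glia and vessels. Plxna4, a class 3 semaphorin receptor, was 44.6 to 59.6 CPM in PFC excitatory neurons and 38.0 ± 5.48 CPM in striatal interneurons, while its relative Plxna3 was highest in OPCs of both tissues, at 18.9 ± 7.63 and 20.6 ± 3.98 CPM. The neuronal ones were Efna3, highest in PFC excitatory neurons at 21.5 ± 2.40 CPM, Epha10, another kinase-dead Eph receptor, in PFC interneurons at 20.1 ± 5.85 CPM, and Sema4g in interneurons at 12.5 ± 9.55 CPM. Sema4b was highest in astrocytes of both tissues, at 32.2 ± 9.66 and 19.2 ± 9.47 CPM, and Ephb3 stood at 14.8 ± 6.03 CPM in PFC astrocytes and 14.9 ± 4.03 CPM in OPCs, which overlap. Sema5b was a gene of the early oligodendrocyte lineage, at 41.2 ± 16.2 CPM in PFC newly formed oligodendrocytes and 29.2 ± 7.31 CPM in OPCs. Ntn4, a netrin of basement membranes, and Sema4c had their highest means in endothelial cells, at 8.87 ± 7.14 and 16.4 ± 2.96 CPM in the PFC. Efna2, Ephb2, Sema3b and Sema6c stayed below 10 CPM on average in every PFC type, as did Efna4.

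The classes with the highest means are set side by side here for ligands and receptors known to bind each other. Of 14 listed pairs, 2 had their highest means in the same class in the PFC (Ntn1 with Dcc in OPCs, Efnb3 with Ephb1 in oligodendrocytes) and 2 in the striatum (Efna5 with Epha4 in interneurons, and again Efnb3 with Ephb1). How many unrelated gene pairs would share a class was not counted, so these numbers have no background and show no trait of the pairs. Not every such class was the highest in each library. In the PFC it was so in 2 of 4 libraries for Slit3, Nrp2 and Efnb2. In the striatum it was so in 2 of 4 for Sema3a, Sema3f, Nrp2, Sema4d, Plxna2, Slit3 and Ntn1. For striatal Sema6a, Slit2, Dcc and Efnb2 it was so in only 1 of 4. Ephb1 was 83.6 ± 6.37 CPM in PFC oligodendrocytes. Among the split pairs, Sema6a was highest in PFC oligodendrocytes at 162 ± 34.5 CPM and its receptor Plxna2 in excitatory neurons at 76.3 ± 10.2 CPM. Sema3e was highest in PFC interneurons at 44.4 ± 10.5 CPM, where its receptor Plxnd1 had no UMI, and Plxnd1 was highest in endothelial cells. Sema3a was highest in PFC interneurons at 32.3 ± 10.7 CPM and Nrp1 in endothelial cells. Sema4d and Plxnb1 split between newly formed oligodendrocytes and astrocytes in both tissues. Efna5 was 52.9 ± 9.10 CPM in PFC interneurons and Epha4 peaked in excitatory neurons there. The Slits and their receptors were split too: Slit1 and Slit2 peaked in PFC excitatory neurons and Robo1 in OPCs, while for Slit3 and Robo2 the classes were excitatory neurons and interneurons. Sema3f was at most 3.90 CPM in any type, so its place says little beside Nrp2, highest in PFC endothelial cells at 27.9 ± 9.79 CPM.

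Excitatory neurons of the PFC fall into annotated subtypes named by layer (SL, superficial; DL, deep) and a marker. Of 54 genes with at least 20 UMIs in them, 1 led in a subtype (1.85%, beside 1.04% of all genes): Sema6a, in DL-Tshz2 cells. The subtype DL-Pou3f1 had 7 to 35 cells per library. It was kept among the subtypes that a leading gene had to exceed. A few UMIs in so few cells can keep a gene from leading, so the counts of leading genes depend on it. DL-Pou3f1 is left out of the values that follow. Several genes nevertheless separated the subtypes in every library, mostly by their absence from 1 or 2 of them.

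Epha4 was 498, 415, 512 and 378 CPM in SL-Cux2 cells, between 297 and 352 CPM on average in SL-Myh7, DL-Nnat and DL-Etv1 cells, 151, 122, 126 and 169 CPM in DL-Foxp2 cells and 6.62, 2.85, 6.93 and 13.2 CPM in DL-Tshz2 cells. The last was lower than every other subtype in every library. Epha5 showed no such gap, with 283 CPM in DL-Tshz2 and 253 CPM in SL-Cux2 cells. Efnb2 followed Epha4 in being near absent from DL-Tshz2 cells (2.92 CPM, against 45.8 CPM in DL-Etv1 cells), whereas Efnb3 was highest there at 143, 111, 152 and 79.3 CPM.

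Unc5c and Unc5d were nearly missing from DL-Foxp2 cells, named for a marker of layer VI neurons that project to the thalamus. Unc5d was 2.92, 0.524, 0.794 and 0 CPM there, 68.5, 58.3, 71.5 and 76.7 CPM in SL-Cux2 cells and 62.0 CPM on average in SL-Myh7 cells. Unc5c was 2.32 CPM in DL-Foxp2 and 2.20 CPM in DL-Tshz2 cells, against 40.6 CPM in DL-Nnat cells. Unc5a did not share this pattern, at 17.1 CPM in DL-Foxp2 and 34.3 CPM in DL-Nnat cells. Slit2 was likewise low in the same 2 subtypes, with 7.82 CPM in DL-Foxp2 and 1 UMI in all DL-Tshz2 cells, and 50.2 CPM in SL-Cux2 cells.

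Sema5a and Nrp1 ran the other way. Sema5a was 134, 190.3, 113 and 257 CPM in DL-Foxp2 cells, 69.3 CPM in DL-Tshz2 cells, 15.1 CPM in DL-Nnat cells and 0.79 CPM in SL-Cux2 cells. Nrp1 was 93.8 CPM in DL-Foxp2 and 62.5 CPM in DL-Tshz2 cells, and 7.59 to 23.2 CPM in the other 4. Plxna2, the Sema6a receptor, had its highest mean in DL-Foxp2 cells at 136 ± 23.2 CPM. Sema6a itself was 41.9, 37.1, 18.5 and 46.3 CPM in DL-Tshz2 cells, 4.10-fold above the next subtype. Sema3e, the secreted ligand of Plxnd1, was 50.8 CPM in DL-Tshz2 and 43.8 CPM in DL-Nnat cells and had no UMI in SL-Myh7 cells of any library. Plxnd1 was 15.5 CPM in SL-Cux2 cells and had 1 UMI in all DL-Foxp2 cells.

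**Figure D3:**
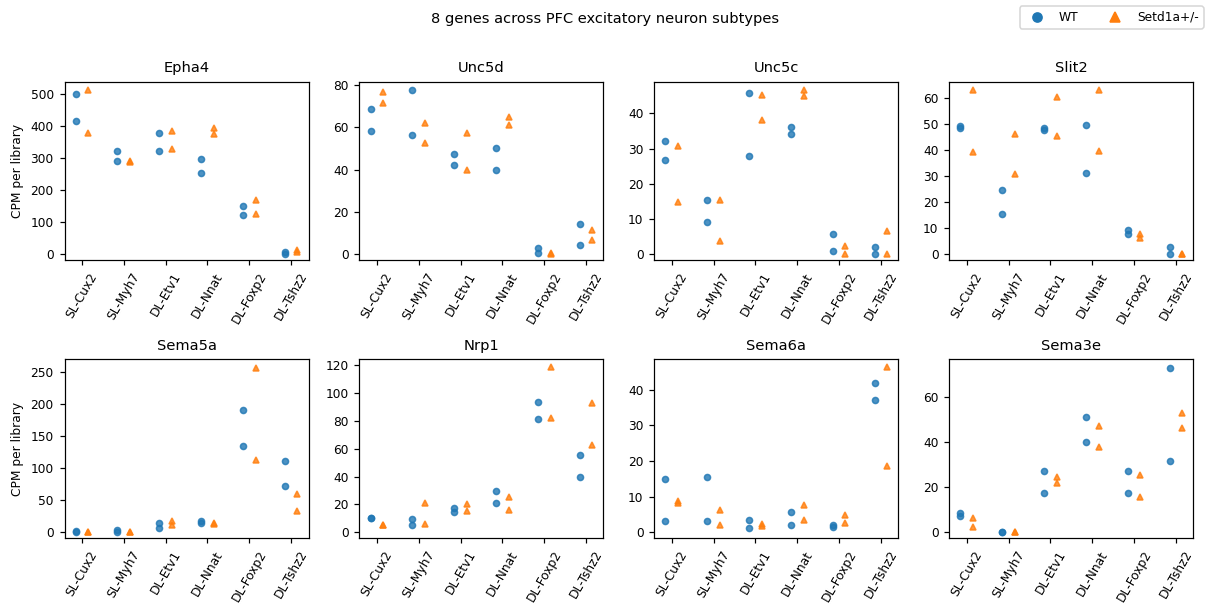
CPM in each PFC library (1 point each; circles, WT; triangles, Setd1a+/-) for 8 genes over 6 excitatory subtypes, each panel on its own linear axis. Epha4, Unc5d, Unc5c and Slit2 have their lowest values in DL-Foxp2 and DL-Tshz2 cells, Sema5a and Nrp1 are highest in the same subtypes in every library, and Sema6a is highest in DL-Tshz2 cells.

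The 2 MSN types of the striatum are D1 cells of the direct and D2 cells of the indirect pathway. Of 55 genes with at least 20 UMIs over both, 3 (5.45%) were at least 2-fold apart in 1 direction in every library, beside 1.43% of all genes. Nrp2 was 16.2, 15.7, 21.5 and 14.7 CPM in D1 and 5.01, 5.49, 7.03 and 7.28 CPM in D2 cells. Sema6a was 7.06, 4.14, 9.49 and 4.77 CPM in D1 and 2.09, 0.323, 3.12 and 1.04 CPM in D2 cells, from 12 UMIs in the latter. Unc5d was higher in D2 cells, with 33.8, 22.6, 25.0 and 38.0 CPM against 8.82, 9.11, 12.0 and 12.5 CPM. In 4 of 4 libraries 15 of the 55 genes (27.3%) were higher in D1 cells, beside 20.5% of all genes, and 8 (14.5%) were higher in D2 cells, beside 7.05%. Of these, 13 on the D1 side and 7 on the D2 side missed 2-fold in at least 1 library. The largest ratios of means among the 13 were those of Efna1 (2.30 CPM in D1 and 0.576 CPM in D2), Sema5a (8.22 CPM in D1 and 2.51 CPM in D2), Sema6d (21.4 CPM in D1 and 9.03 CPM in D2) and Sema5b (17.0 CPM in D1 and 8.03 CPM in D2). The largest among the 7 were those of Unc5c (22.9 CPM in D2 and 10.1 CPM in D1), Efna5 (22.4 CPM in D2 and 12.7 CPM in D1) and Sema3e (40.3 CPM in D2 and 24.7 CPM in D1). Efnb3 did not part them, at 125, 139, 125 and 118 CPM in D1 and 137, 132, 111 and 153 CPM in D2 cells.

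The same cell types of the PFC and the striatum were compared next, with edgeR's quasi-likelihood test on the counts summed per library, genotype as a covariate, and a call at an adjusted p (Benjamini-Hochberg over all genes tested in the type) under 0.05 with more than a 2-fold change. The tissues were dissected and digested separately, so that a regional difference and a difference in handling cannot be told apart. Interneurons held 11 of the 14 calls. Of 33 genes tested in interneurons, 5 were higher in the striatum (background 4.63% of all genes) and 6 lower (background 3.8%), 8.43% of all genes being called in either direction.

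Epha4 rose most in striatal interneurons, to 119.7, 187, 206 and 160.3 CPM from 40.0, 35.9, 28.8 and 29.8 CPM in the PFC (log2 fold change 2.33 ± 0.24 SE, edgeR adjusted p = 5.9e-06). Both neuropilins were higher in the striatum: Nrp2 at 56.0, 23.9, 39.4 and 21.7 against 8.57, 1.99, 8.88 and 16.5 CPM (log2 2.11 ± 0.50) and Nrp1 at 27.3, 19.7, 28.3 and 15.1 against 11.4, 5.98, 11.1 and 9.93 CPM (log2 1.27 ± 0.39). Sema4a (log2 2.22 ± 0.52) and Sema4f (log2 1.19 ± 0.38), membrane semaphorins, were the others that rose. The libraries of the tissues did not overlap for any of these 5 genes. The genes were picked by their calls, which favour such a gap, and no share of all genes stands beside it. It therefore adds no support to the calls. The calls of Sema4f and Nrp1 were lost with DESeq2 (adjusted p = 0.161 and 0.118), that of Sema4f also without any 1 of the 8 libraries, and that of Nrp1 without any of 7 of them.

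The genes lower in striatal interneurons were secreted or membrane semaphorins and 1 netrin receptor. Sema3c was 19.7, 16.5, 13.5 and 17.0 CPM in the striatum and 94.3, 59.8, 71.0 and 89.4 CPM in the PFC (log2 -2.16 ± 0.23). Unc5c was 22.7, 12.3, 25.9 and 19.8 against 80.0, 81.7, 46.6 and 79.4 CPM (log2 -1.81 ± 0.27). Sema5a was 49.2, 51.8, 54.2 and 65.1 against 151, 108, 115 and 169 CPM (log2 -1.26 ± 0.19). Sema3a (log2 -1.80 ± 0.39), Sema6a (log2 -1.65 ± 0.34) and Sema3e (log2 -1.32 ± 0.29) fell as well. Again the libraries did not overlap, which likewise adds nothing to the calls.

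The striatal interneuron class held 138 to 248 cells per library, and in 21.0% to 25.6% of them Slc17a7 or Neurod6 had a UMI, against 0 to 11% in the PFC. Free RNA of the striatal libraries held Slc17a7 at 15.3 to 48.3 CPM, below the 189 CPM of this class. The test was therefore repeated on cells with an inhibitory and no excitatory marker (109 to 179 cells per striatal and 48 to 89 per PFC library), a setting chosen after the data were seen. In these cells 8 of 24 genes tested were called, beside 7.19% of all genes. Epha4 (log2 2.62) rose, and Sema3a (-2.32), Sema3c (-2.17), Sema3e (-2.80), Sema5a (-1.30), Sema6a (-1.47) and Unc5c (-1.60) fell, as before. Nrp2 (log2 1.10, edgeR adjusted p = 0.296) was no longer called, while Nrp1, Sema4a and Sema4f had too few counts to be tested. Efnb3 (log2 1.10 ± 0.21) was called in addition. The part of cells with excitatory markers in the calls of Nrp1, Sema4a and Sema4f was not tested. For the selection 1 UMI of an inhibitory marker was enough. The inhibitory markers Gad1, Gad2 and Slc32a1 summed to 1016 to 1393 CPM in striatal interneurons. They summed to 1107 to 1249 CPM in D1 and 1016 to 1178 CPM in D2 MSNs, so they do not part MSNs from interneurons. The 3 D1 MSN markers summed to 151 to 303 CPM in striatal and 136 to 540 CPM in PFC interneurons. The 3 D2 MSN markers summed to 141 to 193 and 79.7 to 209 CPM. The part of MSNs in the interneuron calls was not tested. Free RNA held the inhibitory marker Gad1 at 358 to 406.5 CPM in the striatum and 82.6 to 160 CPM in the PFC. The part of free RNA in the selection was not tested.

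In astrocytes 1 of 12 genes was called, beside 10.6% of all genes. Plxnb2 was 58.4, 51.0, 109 and 202 CPM in striatal and 9.65, 0, 8.54 and 8.14 CPM in PFC astrocytes (log2 3.54 ± 0.44, edgeR adjusted p = 2.9e-05). Its relative Plxnb1 was 75.8 ± 6.67 and 56.7 ± 20.2 CPM in the same cells and was not called. The PFC values of Plxnb2 rest on few UMIs, as PFC astrocytes held 117031 to 414386 UMIs of all genes per library. The neural stem cell and neuroblast markers Dcx, Sox11 and Dlx1 summed to 58.6 to 159 CPM in striatal and 34.2 to 60.3 CPM in PFC astrocytes, the 3 D1 MSN markers to 52.9 to 387 and 0 to 3.67 CPM, and the 3 D2 MSN markers to 118 to 542 and 0 to 8.14 CPM. In the striatum neuroblasts held Plxnb2 at 26.8 CPM, D1 MSNs at 13.6 CPM, and free RNA at 24.0 to 30.9 CPM (6.12 to 17.0 CPM in the PFC). Striatal microglia held 64.7 CPM, and the microglial marker C1qa was 9.70 CPM in striatal astrocytes and 5431 CPM in striatal microglia. The part of these transcripts in the Plxnb2 call was not tested.

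In endothelial cells 1 of 30 genes was called (5.7% of all genes) and in microglia 1 of 6 (17.5% of all genes), and both calls were Efnb3. Efnb3 was 22.3, 22.4, 16.5 and 32.8 CPM in striatal and 2.50, 2.65, 3.76 and 2.41 CPM in PFC endothelial cells (log2 2.93 ± 0.37, edgeR adjusted p = 0.00076). In microglia it was 92.4, 47.2, 35.7 and 44.8 against 0, 10.8, 40.5 and 0 CPM (log2 2.81 ± 0.92, edgeR adjusted p = 0.047), the only call of the 14 whose libraries overlapped. This call was lost without PFC WT library 1 (log2 1.78, edgeR adjusted p = 0.152), without PFC Setd1a+/- library 2 (log2 2.55) and without either striatal library 2 (log2 2.82 for WT and 2.93 for Setd1a+/-), and without striatal WT library 1 the gene missed the count filter. Free RNA held Efnb3 at 145 to 174 CPM in the striatum and 50.8 to 105 CPM in the PFC. The 3 D1 MSN markers summed to 76.0 to 406 CPM in striatal endothelial cells and were all at 0 in PFC ones, and in microglia they summed to 696 to 1014 CPM against 0 to 3.55 CPM. Oligodendrocyte markers summed to 14.6 to 221 CPM in striatal and 10.5 to 21.7 CPM in PFC endothelial cells, and to 44.8 to 382 CPM and 58.5 to 152 CPM in microglia. The part of these transcripts in the Efnb3 calls was not tested.

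No gene of the 66 was called in newly formed oligodendrocytes (11 tested, beside 0.0797% of all genes), oligodendrocytes (17 tested, 2.12%) or OPCs (22 tested, 0.255%). In oligodendrocytes Sema6a (log2 -0.95 ± 0.23) and Sema6d (log2 -0.77 ± 0.18) passed the adjusted p at less than 2-fold, both lower in the striatum.

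**Figure D4:**
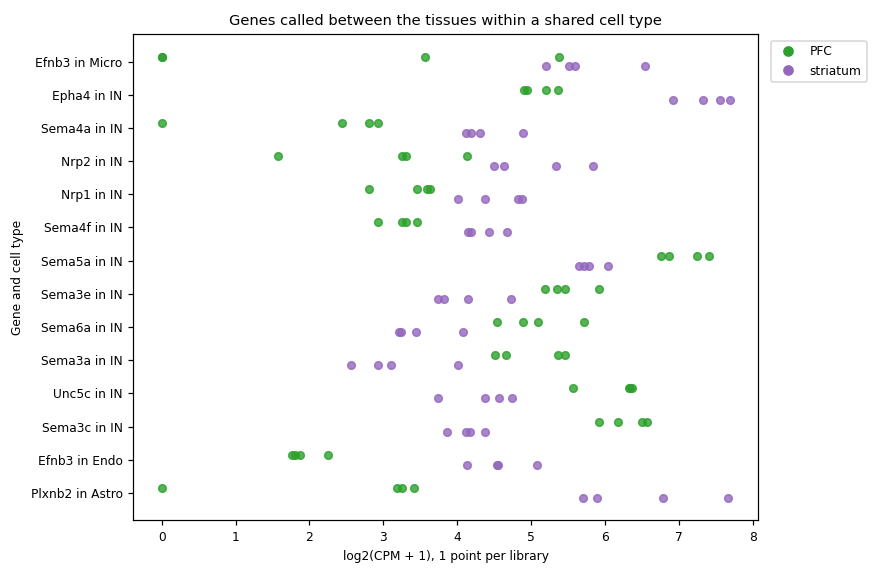
Level in each library, as log2(CPM + 1), for the 14 gene and cell type pairs called between PFC (green) and striatum (purple), 4 points per tissue. The tissues overlap only for Efnb3 in microglia (Micro), where the PFC libraries run from 0 to 40.5 CPM.

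The comparison the study was built for is that of Setd1a+/- with WT. By edgeR's quasi-likelihood test on library sums, none of the 66 genes was called in any cell type (a call needed an adjusted p under 0.05 with more than a 1.5-fold change for PFC cells and more than a 2-fold change for striatal cells). In the PFC 60 of the genes were tested in 144 gene and type combinations over 8 types, and 0.0% of all 51145 combinations were called. In 6 excitatory subtypes 154 combinations of 38 genes gave none, with a background of 0.0%. In the striatum 209 combinations over 10 types gave none, with a background of 0.00544%, which is 4 genes in D2 MSNs, all lower in Setd1a+/-. At an unadjusted p under 0.05 there were 2 in the PFC (1.39% beside 1.7% of all), 0 in the subtypes (beside 1.6%) and 5 in the striatum (2.39% beside 2.62%). With the replicate number as a block the counts over all genes became 26, 11 and 79, and none of the 66 was among them. DESeq2 called none of the 66 either. Without PFC Setd1a+/- library 2, 306 subtype combinations over all genes were called, and 1 of them was among the 66, Ephb6 in SL-Cux2 cells (log2 -1.52, edgeR adjusted p = 0.0081). The same log2 fold change was -0.40 with all 4 libraries, -0.87 without WT library 1, 0.48 without WT library 2 and 0.23 without Setd1a+/- library 1.

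In PFC excitatory neurons the smallest unadjusted p was that of Dcc, at 5.56, 4.74, 2.57 and 1.42 CPM (log2 -1.31 ± 0.43, edgeR adjusted p = 1.0). Both Setd1a+/- libraries were below both WT libraries. Sema5a, a transmembrane semaphorin known for both attractive and repulsive actions, was 50.9, 61.7, 40.0 and 37.7 CPM (log2 -0.53 ± 0.22), and its Setd1a+/- libraries were also the lower ones. Dcc and Sema5a were picked for their small p, which favours such full splits between the groups. No share of all genes that split this way is given, here or for the genes below. In PFC excitatory neurons 22 of 50 genes had a fold change above 0 and the median log2 fold change was -0.04, beside 0.00 for all genes.

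In PFC endothelial cells Efna1, an ephrin induced in activated vessels, was 109, 95.4, 79.6 and 57.9 CPM (log2 -0.51 ± 0.26) and Sema3g was 46.1, 68.9, 38.3 and 38.6 CPM (log2 -0.51 ± 0.31). Efna1 had both Setd1a+/- libraries below both WT libraries in the PFC, and so it had in the striatum, at 84.0, 70.4, 49.0 and 45.5 CPM (log2 -0.66 ± 0.22, edgeR adjusted p = 1.0). The interaction test of the Efna1 effect between the tissues gave a log2 difference of -0.14 ± 0.33 (edgeR adjusted p = 1.0). Plxnd1 in striatal endothelial cells was 42.3, 32.9, 20.9 and 23.7 CPM (log2 -0.75 ± 0.29). Sema4d, which the study discusses for PFC endothelial cells, had 5 UMIs in that class over the 4 libraries (0.501, 3.98, 0 and 2.41 CPM), too few to be tested.

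In the striatum Plxnb2 in astrocytes, which also differed between the tissues, had the largest fold change of the tests with an unadjusted p under 0.05 (log2 1.25 ± 0.36, edgeR adjusted p = 0.919). Both Setd1a+/- libraries, at 109 and 202 CPM, exceeded both WT libraries, at 58.4 and 51.0 CPM. The value of 202 CPM is from Setd1a+/- library 2, with 31 astrocytes and 94178 UMIs in them, where the others had 214 to 354 astrocytes. In D1 MSNs Robo2 was 33.5, 39.1, 54.0 and 47.7 CPM (log2 0.52 ± 0.18) and Unc5a 10.9, 13.7, 18.0 and 16.2 CPM (log2 0.50 ± 0.26). Each had the Setd1a+/- libraries above the WT ones, a split that picking genes by p favours. In D2 MSNs Sema3e was 29.6, 39.4, 45.3 and 46.8 CPM (log2 0.46 ± 0.22) and Efnb2 36.3, 34.9, 37.5 and 49.4 CPM (log2 0.35 ± 0.22). Unc5d in striatal interneurons (log2 0.67 ± 0.28) and Robo1 in PFC OPCs (log2 -0.89 ± 0.38) also had an unadjusted p under 0.05, which with Dcc in PFC excitatory neurons, Efna1 and Plxnd1 in striatal endothelial cells, Plxnb2 and Robo2 makes 7 tests. The other genotype values of the PFC and the striatum given here did not reach it, and none passed the adjustment.

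Of 47 genes tested in D1 MSNs, 35 had a fold change above 0, with a median log2 fold change of 0.19 beside 0.01 for all genes, and in D2 MSNs 28 of 38, with 0.11 beside 0.01. The same 4 libraries supply all these values, so that the genes are not independent of each other. The share of all genes with a fold change above 0 was not counted. Such counts are given only for PFC excitatory neurons and for D1 and D2 MSNs, so they show no trait particular to MSNs. Efnb3 in DL-Foxp2 cells was 51.5, 51.4, 56.4 and 12.8 CPM (log2 -0.39 ± 0.49, edgeR adjusted p = 1.0), where Setd1a+/- library 2 holds 5 UMIs. The study names Efnb3 among the genes changed in sorted Foxp2+ neurons by bulk RNA sequencing of nuclei. That is another assay on other mice, so the values given here do not test it.

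**Figure D5:**
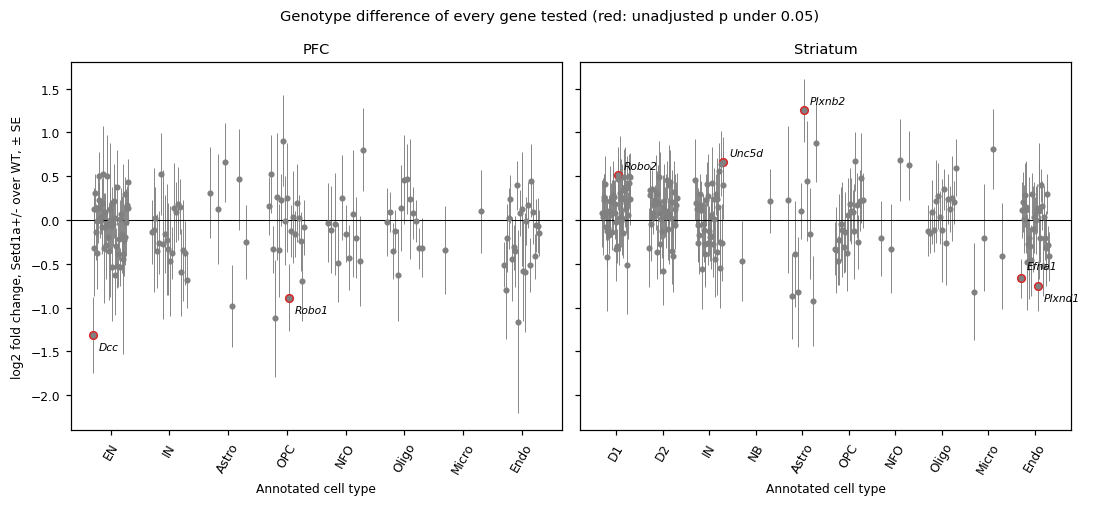
Log2 fold change of Setd1a+/- over WT with its standard error for every gene tested (1 point per gene), by annotated cell type, in the PFC and the striatum. Red marks the 7 tests with an unadjusted p under 0.05, which are named, and no test passed after adjustment.

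The genotype effect itself was compared between the tissues in the 7 shared types. None of 131 tests of the 66 genes was called (background 0.0%), and 2 had an unadjusted p under 0.05 (beside 2.21% of all tests), both in interneurons: Unc5d (log2 1.34 ± 0.43) and Slit2 (log2 1.84 ± 0.78), each with an edgeR adjusted p of 1.0. DESeq2 called none either, and with the replicate number as a block the count over all genes was 4, with none of the 66 among them.

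Each biological replicate of the study held 1 WT and 1 Setd1a+/- sample, so the replicate numbers themselves were compared, with genotype as a covariate. In the PFC 6 of 144 tests of the 66 genes were called (4.23% of all tests) and in the striatum 1 of 209 (0.939%). In PFC excitatory neurons Sema6b was 3.18, 20.3, 2.35 and 16.2 CPM (replicate 2 over 1, log2 2.82 ± 0.32, edgeR adjusted p = 1.7e-05). Plxnd1 (log2 1.61 ± 0.35), Ephb6 (log2 1.44 ± 0.19) and Plxna1 (log2 0.80 ± 0.22) were also higher and Efnb3 (log2 -0.77 ± 0.22) lower in replicate 2. Plxnb3 in PFC newly formed oligodendrocytes (log2 1.42 ± 0.38) and Nrp1 in D2 MSNs (log2 -1.13 ± 0.25) were the others. For Sema6b, Plxnd1, Ephb6 and Plxnb3 this step between replicate numbers was larger than the largest difference between the genotypes among the 66 genes in the PFC (log2 1.31 in size).

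From a longer list of further genes of these pathways (co-receptors, other cues and intracellular signalling), 65 were counted beside the 66. None was called for genotype, in 290 PFC, 271 subtype and 404 striatal tests. An unadjusted p under 0.05 was found in 4, 3 and 8 of them. That is 1.38%, 1.11% and 1.98%, beside 1.7%, 1.6% and 2.62% of all tests. With no count filter 1 of these genes was called in PFC types, beside 63 calls over all genes. Calls among them also came in subtypes without PFC Setd1a+/- library 2, and in the striatum without either Setd1a+/- library in turn. Those fits have a lone library in 1 group. L1cam, an adhesion molecule that the study discusses for the striatum, had log2 fold changes of -0.23 ± 0.17 in D1 and -0.35 ± 0.20 in D2 MSNs, 0.10 ± 0.23 in interneurons, -0.12 ± 0.49 in endothelial cells and -0.61 ± 0.48 in OPCs. Between the tissues 24 of 281 tests of these genes were called, 19 higher and 5 lower in the striatum, over 17 genes. The 24 became 12 without PFC WT library 1 and 38 with no count filter. Over all genes the 2918 calls became 2023 and 5538 in the same settings. Over all genes 5.85% of tests were called, 4.21% higher and 1.64% lower in the striatum.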

How the data were processed

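Single-cell suspensions of both tissues were run on the 10x platform, and the deposited matrices hold raw UMI counts for every droplet, made by the authors with Cell Ranger 3.0.2 on mm10, per the submitters' processing notes, which also name Seurat 3.2.0. The authors removed cells with few genes or many mitochondrial counts, clustered the rest and deposited 1 annotation table per tissue and 1 for PFC excitatory subtypes. Only annotated cells were used here, with the authors' names; doublets were not called again. The annotation filters are the authors' own, and free RNA was read from unannotated droplets with at most 100 UMIs.

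UMIs were summed per library and type (at least 10 cells) and tested with edgeR 4.0.16 in R 4.3.3 (quasi-likelihood, TMM, genes kept by filterByExpr at min.count 10, p-values adjusted per type by Benjamini-Hochberg). SE is the log2 fold change divided by the square root of F. The call limits follow the study (adjusted p under 0.05, fold above 1.5 in PFC and 2 in striatum), and the tissue test used 2. The study applied its limits to a comparison of single cells, whereas here libraries are the replicates. The numbers of calls are therefore not comparable with the study's. DESeq2 1.42.0 was an alternative, with others given at the end. The edgeR fit was tried on simulated counts for genotype in PFC excitatory neurons and D1 MSNs and for tissue in endothelial cells. Those counts held no difference between replicates. The other models, DESeq2 and the counts of levels were not tried in this way.

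Per the study each biological replicate held 1 WT and 1 Setd1a+/- sample. The numbers were taken as pairs only with the replicate block and in the replicate comparison. The main genotype fits were unpaired, so their SE and p-values do not use the pairs. Deviations of same-numbered libraries from their group means correlated across genes. The median r was 0.37 (0.12 to 0.60) in PFC types, 0.46 in subtypes and 0.19 (0.097 to 0.39) in striatal types. A library is a pool of 2 mice, so that p-values measure the spread between pools. Positions are from GENCODE vM21 (GRCm38, which mm10 is), in which 30934 of 31053 gene IDs were found.

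The genes and lists were chosen with earlier results of these data known. Genes named are those called in any test, up to 3 leaders per type, the 2 with the smallest genotype p in the main types, up to 5 tissue calls per type, the listed ligand and receptor pairs, and Sema4d and L1cam; the others were added so that each gene is accounted for, or chosen after their values were seen, as were the subtype and D1 against D2 examples.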

Additional observations from a re-analysis of the deposited data

Results flagged for a closer look

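Of 53 sets of 4 libraries checked, 4 had 1 library far from the other 3, and chance alone flags about 1 in 20. In striatal endothelial cells Setd1a+/- library 2 had Robo4 at 56.5 CPM, where the others had 96.6 to 105 CPM. In the same library and class Ephb4 was 20.03 CPM, where the others had 36.9 to 38.8 CPM. PFC WT library 2 had no UMI of Plxnb2 in astrocytes, that is 0 CPM, where the others had 8.14 to 9.65 CPM. With 117031 to 414386 UMIs per library in PFC astrocytes, all 4 values rest on few UMIs of Plxnb2. PFC Setd1a+/- library 1 had Unc5c at 46.6 CPM in interneurons, where the others had 79.4 to 81.7 CPM. The tissue calls of Plxnb2 and Unc5c include these libraries, and without any 1 library their log2 fold changes ran from 3.26 to 4.15 and from -2.02 to -1.57. What set these libraries apart was not tested.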

How the results depend on the processing

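No genotype test called any of the 66 genes under DESeq2, RLE size factors, no count filter or the replicate block; leaving out 1 library gave 0 to 1 in the subtypes and 0 elsewhere. Over all genes the genotype counts moved more: in PFC types from 0 to 1 with DESeq2, 63 with no filter, 26 with the replicate block and 25 to 122 without 1 library; in subtypes from 0 to 28, 11 and 7 to 306 (no filter, block, left-out library); in the striatum from 4 to 110, 79 and 67 to 402; and for the difference between tissues from 0 to 26, 4 and 0 to 4. Fits without 1 library have a lone library in 1 group, assumed to vary like the others. L1cam in striatal endothelial cells, -0.12, turned to 0.025 with the replicate block and ran from -0.50 to 0.38 without 1 library. Tissue calls among the 66 genes went from 14 to 30 gene and type tests with no filter (2918 to 5538 over all genes). The block gave 19 (4086 over all genes) and changed no call among the named ones. Leaving out 1 library gave 10 to 20 (2023 to 4299 over all genes). Of 110 such refits of named calls, 91 held and 19 lost significance, with no change of direction. Sema4a in interneurons and Efnb3 in microglia missed the filter without striatal WT library 1. The replicate calls went from 7 to 13 with no filter (2853 to 3208 over all genes), Plxnb3 then missing (adjusted p = 0.072); they could not be refitted without 1 library, which leaves no residual degrees of freedom. Asking for 3-fold in place of 2-fold left 6, 5 and 0 leading genes in PFC types, striatal types and subtypes. Leaving out 1 library gave 14 to 17, 11 to 13 and 1 to 2. These counts were not made over all genes, so they have no background beside them. The cause of these shifts was not tested. Depth limits the small classes: in microglia 6 of the 66 genes had enough counts for the tissue test.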
